A study of Mus musculus with 30 samples.

Results

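Interferon-stimulated genes were followed in mouse liver across 2 xenobiotic treatments and 4 genotypes of the nuclear receptors CAR and PXR. The set was a list of 43 gene symbols, 33 known mainly as targets of type I interferon and 10 known as targets of interferon gamma. Each gene was represented by the probe set that was annotated to it alone and had the highest mean over the 30 arrays. By this rule 41 of the 43 genes had a probe set, out of 18193 genes in the series, and 40 of them were among the 12795 genes tested. Isg15 and Ifi44 had no probe set of their own. Mx1, which is defective in most laboratory mouse strains, lay between 3.74 and 4.57 on all arrays, below every array median, and was not tested.

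The livers came from adult male mice on a C57BL/6J background, with 3 arrays in each of 10 groups. Wild type (WT), hCAR/hPXR and CARko/PXRko mice received corn oil, 1,4-dichlorobenzene (DCB, 600 mg/kg daily by gavage) or cyproterone acetate (CPA, 160 mg/kg daily by gavage), and PXRko mice received corn oil only. The hCAR/hPXR mice carry human in place of mouse CAR and PXR, and the CARko/PXRko mice lack both receptors. DCB is a solvent and deodorant chemical, and CPA is a synthetic progestin and antiandrogen that activates rodent PXR. The labels give 3 days of treatment for corn oil, for DCB and for CPA in CARko/PXRko mice, but 6 days for CPA in WT and hCAR/hPXR mice, whereas the treatment protocol describes 3 days for all. By the labels, the CPA effects in WT and hCAR/hPXR mice therefore set 6-day arrays against 3-day controls, and CPA and labelled duration cannot be told apart there. The design names 5 mice per group. The labels do not say that the 3 arrays of a group are 3 separate mice, so the tests speak only for the variation among these arrays, which may be technical.

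The median signal of an array was 5.36 to 5.44 on the log2 scale. The mouse receptor transcripts went with the labels: Nr1i2 (PXR) was between 6.75 and 8.06 in WT groups and between 4.25 and 4.97 in every other group, and Nr1i3 (CAR) was between 9.32 and 10.60 in WT and PXRko groups and between 6.05 and 6.86 in hCAR/hPXR and CARko/PXRko groups. The hepatocyte gene Alb lay between 15.09 and 15.30 on all arrays. On 4 arrays, the median of 19 skeletal muscle genes was more than 1 log2 unit above corn oil WT. These were corn oil CARko/PXRko replicate 2 (6.69), corn oil PXRko replicate 3 (1.42) and DCB CARko/PXRko replicates 2 and 3 (2.18 and 6.49). DCB CARko/PXRko replicate 3 also had high medians of adrenal cortex genes (5.81 above corn oil WT) and brown fat genes (5.99), and replicate 2 of squamous epithelium genes (3.17). Counts over all members in comparisons that include these 4 arrays are given with and without them. Counts by role group, counts of members without overlap and counts of other gene lists are given with them only. The part of this foreign tissue in the results was not tested.

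Interferons are secreted cytokines that cells release on sensing viral nucleic acid or other danger signals. Type I interferons act through the IFNAR receptor and a complex that contains STAT2 and IRF9 and binds the interferon-stimulated response element (ISRE), whereas interferon gamma acts through its own receptor on genes with gamma-activated sites (GAS). Many target genes keep a low tonic expression without infection, in hepatocytes as well as in the macrophages, endothelial cells and lymphocytes of the liver.

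Promoter sequences are shown for members that fell under CPA and whose promoter holds a match to the ISRE core, because type I interferon signalling is known to act through this element. A RefSeq promoter table (assembly GRCm38.p6) listed 31 of the 43 members. The ISRE core was searched as GAAA, any 2 bases and GAAA again, or on the other strand TTTC, any 2 bases and TTTC, and the GAS core as TTCNNNGAA, which reads alike on both strands. Both were searched within the 250 bases before the gene start, and matches could overlap each other. The ISRE core was found in 12 of the 31 members (38.7%) and in 936 of the 27025 genes of the table (3.46%). Among type I induced members it was found in 7 of 23 and among gamma-induced members in 5 of 8. The GAS core was found in 5 of the 31 members (16.1%) and in 8.13% of all genes. The 160 bases before the gene start are given 5′ to 3′ on the strand of the gene, with ISRE core matches in capitals, for Ifit1 (chr19:34640729-34640888, plus strand), Ifit3 (chr19:34583369-34583528, plus strand), Gbp3 (chr3:142559884-142560043, plus strand), Trim30a (chr7:104465194-104465353, minus strand), Rsad2 (chr12:26456453-26456612, minus strand) and Gbp2 (chr3:142620503-142620662, plus strand).
Ifit1: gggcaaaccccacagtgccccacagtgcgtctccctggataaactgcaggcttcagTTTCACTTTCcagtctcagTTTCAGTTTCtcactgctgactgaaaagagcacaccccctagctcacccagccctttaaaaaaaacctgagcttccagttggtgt
Ifit3: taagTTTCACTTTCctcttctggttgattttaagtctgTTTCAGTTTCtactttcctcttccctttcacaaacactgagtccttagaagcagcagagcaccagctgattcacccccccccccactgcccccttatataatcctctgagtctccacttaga
Gbp3: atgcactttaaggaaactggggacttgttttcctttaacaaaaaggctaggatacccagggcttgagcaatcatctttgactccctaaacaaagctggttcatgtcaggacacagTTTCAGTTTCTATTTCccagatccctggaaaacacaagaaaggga
Trim30a: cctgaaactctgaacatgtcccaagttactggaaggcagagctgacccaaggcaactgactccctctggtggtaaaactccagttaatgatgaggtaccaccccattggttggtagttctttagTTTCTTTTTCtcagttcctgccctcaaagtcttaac
Rsad2: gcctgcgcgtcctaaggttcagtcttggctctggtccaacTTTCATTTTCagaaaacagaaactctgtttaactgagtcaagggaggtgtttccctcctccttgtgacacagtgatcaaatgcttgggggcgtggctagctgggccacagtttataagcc
Gbp2: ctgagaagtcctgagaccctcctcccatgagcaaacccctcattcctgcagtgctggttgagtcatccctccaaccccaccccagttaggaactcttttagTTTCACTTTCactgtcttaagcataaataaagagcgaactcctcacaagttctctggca

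The paired matches of Ifit1 began 104 and 85 bases before the gene start, those of Ifit3 156 and 122 bases before it, and the 2 overlapping matches of Gbp3 45 and 39 bases before it. Single matches began 36 bases before the start of Trim30a, 120 before that of Rsad2 and 59 before that of Gbp2. The 6 members shown are all those of the table that fell under CPA in at least 1 genotype and held an ISRE core. The other 11 that fell held none as spelled here: Irf7, Irf9, Ifih1, Oasl2, Ifit2, Cmpk2, Xaf1, Lgals3bp, Irf1, Ifi47 and Cxcl9. Ifit2 held a GAS core 241 bases before its start. Of 12 tested members that were not called under CPA, 5 held an ISRE core (Stat2, Bst2, Igtp, Irgm1 and Cxcl10). A match is a match of letters only, and binding was not measured.

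Interferon-stimulated genes fell under CPA in each of the 3 genotypes, including mice without CAR and PXR, and no member rose. With limma and Benjamini-Hochberg adjusted p under 0.05 as the threshold, 10 of the 40 members tested fell in WT mice, 22 fell in hCAR/hPXR mice and 18 fell in CARko/PXRko mice. Among all genes tested, 0.633%, 2.9% and 3.31% were called lower in the same comparisons. The median log2 difference of the 40 members was -0.65, -1.09 and -0.94, beside -0.01, -0.02 and -0.01 for all genes tested. The difference was below 0 for 38, 40 and 40 members, beside 51.3%, 52.6% and 51.7% of all genes tested. In 31, 32 and 32 of these members all 3 CPA arrays lay below all 3 corn oil arrays (14.4%, 13% and 12.8% of all genes tested). The 3 comparisons have separate controls but share 1 estimate of the spread. In all of them 10 members were lower (Usp18, Irf7, Irf9, Ifit1, Ifit2, Trim30a, Rtp4, Xaf1, Ifi27l2a and Gbp3), against 48 of the 12795 genes (0.375%).

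**Figure D1:**
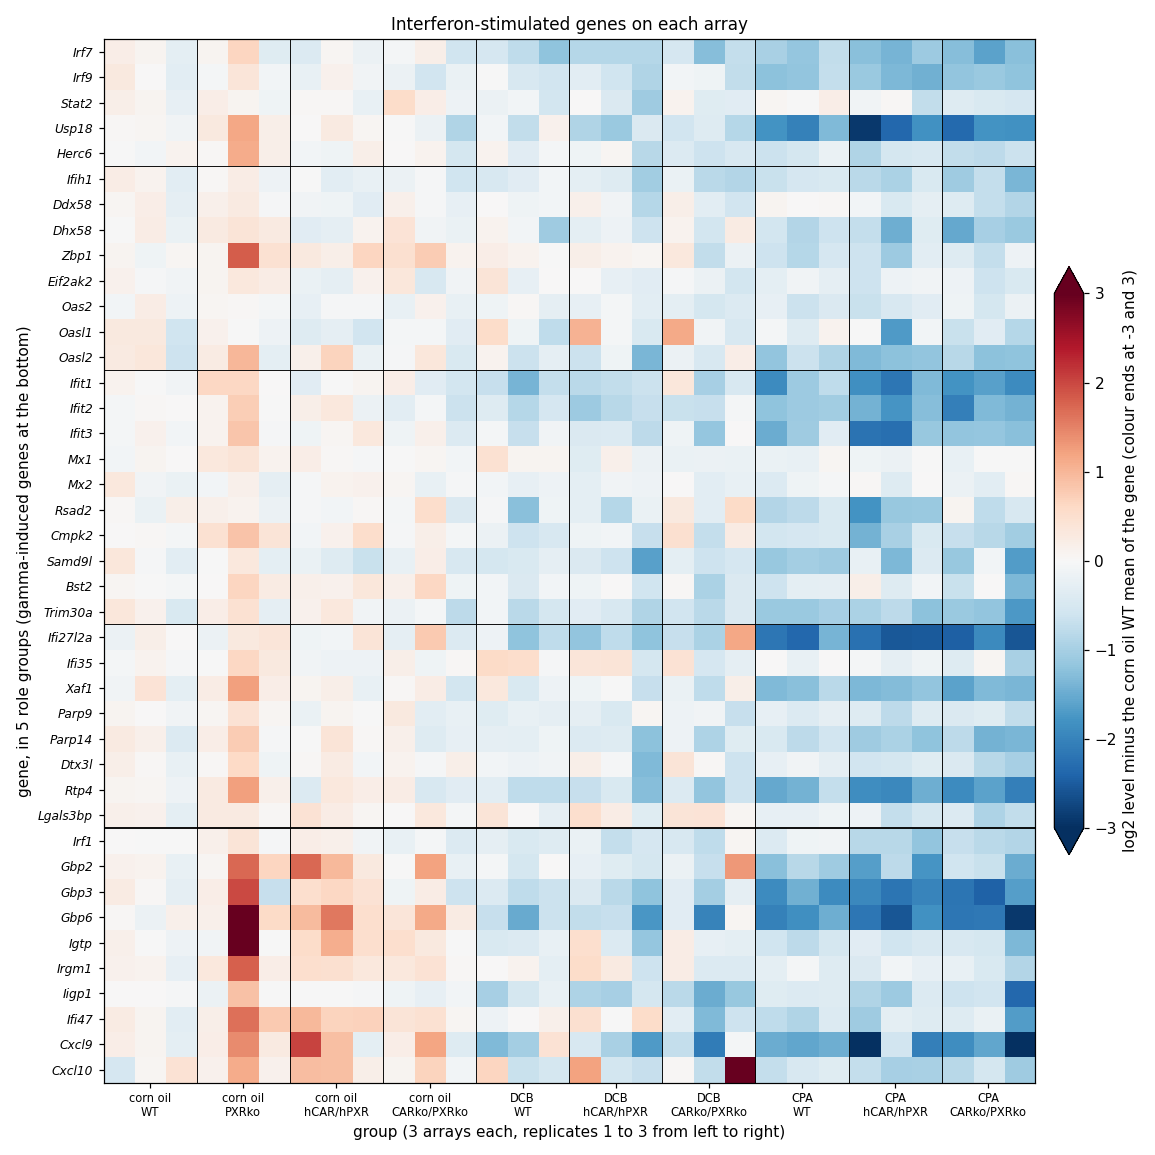
Log2 level of each of the 41 measured members (vertical axis, in 5 role groups) on each of the 30 arrays (horizontal axis, 3 per group), minus that gene's corn oil WT mean. Blue cells, below that mean, fill the 3 CPA groups for genes such as Usp18, Ifi27l2a, Rtp4 and Gbp6, and the red column is corn oil PXRko replicate 2, where Igtp reached 12.41.

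**Figure D2:**
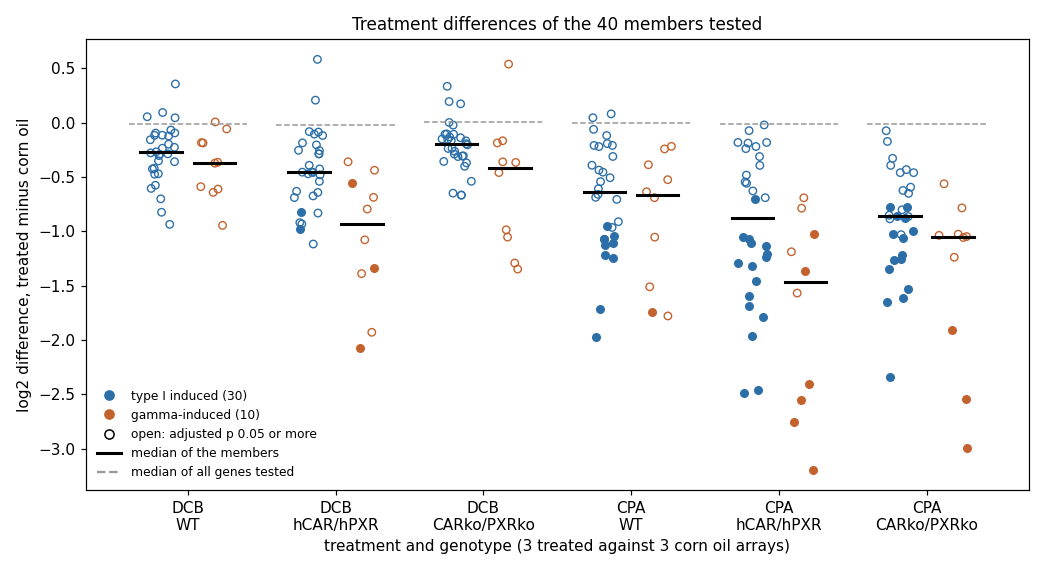
Log2 differences between treated and corn oil arrays (vertical axis) for the 40 members tested, in 6 treatment comparisons (horizontal axis), with type I induced members in blue and gamma-induced members in orange. Filled points had an adjusted p under 0.05, black bars are medians of the members and dashed lines medians of all genes tested; under CPA 10, 22 and 18 points are filled, under DCB 0, 5 and 0.

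Among the regulators of the pathway, 3 of 5 tested fell under CPA in every genotype. Usp18 encodes the protease that removes ISG15 from proteins and also blocks IFNAR signalling. Its log2 level was 8.54, 8.57 and 8.39 on the corn oil WT arrays and 6.71, 6.47 and 7.18 on the CPA WT arrays. In hCAR/hPXR mice it was 8.50, 8.77 and 8.56 against 5.61, 6.15 and 6.68, and in CARko/PXRko mice 8.49, 8.32 and 7.60 against 6.18, 6.70 and 6.69. The treated and control arrays did not overlap in any genotype. The log2 differences were -1.71 ± 0.29 (SE, n = 3 against 3; limma adjusted p = 0.00321) in WT, -2.46 ± 0.29 (adjusted p = 1.36e-05) in hCAR/hPXR mice, and -1.61 ± 0.29 (adjusted p = 0.00165) in CARko/PXRko mice, or 3.28-fold, 5.51-fold and 3.06-fold lower.

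Irf9 encodes the DNA-binding subunit of the complex that binds the ISRE. Its level went from 8.21, 7.95 and 7.62 under corn oil to 6.71, 6.73 and 7.21 under CPA in WT mice, without overlap (-1.04 ± 0.21, adjusted p = 0.0101). It fell by 1.24 ± 0.21 in hCAR/hPXR mice and by 0.86 ± 0.21 in CARko/PXRko mice. Irf7, the factor that amplifies interferon transcription, fell by 0.95 ± 0.24 in WT (adjusted p = 0.0497), by 1.07 ± 0.24 in hCAR/hPXR and by 1.22 ± 0.24 in CARko/PXRko mice. Stat2, which encodes another subunit of that complex, and Herc6, the mouse ISG15 ligase, were not called in any genotype. Stat2 differed by 0.08, -0.22 and -0.65 and Herc6 by -0.46, -0.63 and -0.59 in WT, hCAR/hPXR and CARko/PXRko mice.

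Of the 8 genes for nucleic acid sensors and RNA-binding enzymes, 0 were called in WT mice, and 2 fell in each of the other genotypes. In WT mice 5 of the 8 had an unadjusted p under 0.05, beside 1313 of the 12795 genes tested. The hCAR/hPXR calls were Oasl2, of the OAS-like family (-1.45 ± 0.33, adjusted p = 0.0102), and Zbp1, a sensor of Z-form nucleic acid (-1.05 ± 0.30, adjusted p = 0.0491). The CARko/PXRko calls were Dhx58, the LGP2 helicase (-1.26 ± 0.28, adjusted p = 0.00807), and Ifih1, the MDA5 helicase (-0.78 ± 0.22, adjusted p = 0.0372). Oasl2 was above the array median on 9 of 30 arrays only, so its level under CPA, between 4.09 and 4.76, is close to the dim end of the scale. Ddx58, the RIG-I helicase, differed by 0.05, -0.07 and -0.62 in WT, hCAR/hPXR and CARko/PXRko mice. The RNA-activated kinase gene Eif2ak2, Oas2 and Oasl1 were not called in any genotype, with differences between -0.46 and -0.12.

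Of 9 tested genes for antiviral effectors, 3 fell in WT, 6 in hCAR/hPXR mice and 5 in CARko/PXRko mice. Ifit1 and Ifit2 encode proteins that bind foreign RNA and block its translation. Ifit2 was at 6.00, 6.09 and 6.07 under corn oil and at 4.86, 4.97 and 5.02 under CPA in WT mice, a fall of 1.11 ± 0.22 (adjusted p = 0.0101). Humanised livers had it at 6.22, 6.36 and 5.88 against 4.63, 4.29 and 4.77 (-1.59 ± 0.22, adjusted p = 6.93e-05), and in CARko/PXRko mice at 5.73, 6.00 and 5.41 against 4.01, 4.72 and 4.63 (-1.26 ± 0.22, adjusted p = 0.00117). All CPA arrays lay below the control arrays and below the lowest array median of 5.36. Because Ifit2 exceeded its array median on 15 of the 30 arrays, its fall can be understated.

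Ifit1, with its pair of ISRE cores, was at 7.35, 6.80 and 6.61 under corn oil and at 5.37, 5.54 and 5.26 under CPA in CARko/PXRko mice (-1.54 ± 0.30, adjusted p = 0.00317). It fell by 1.24 ± 0.30 in WT and by 1.69 ± 0.30 in hCAR/hPXR mice. Ifit3 was at 7.63, 7.81 and 8.06 against 5.53, 5.47 and 6.61 in hCAR/hPXR mice (-1.96 ± 0.31, adjusted p = 0.000417). The fall was 1.06 ± 0.31 in CARko/PXRko mice, and in WT mice it differed by -0.96 and was not called. Trim30a, a regulator of innate signalling, was at 7.46, 7.25 and 6.66 against 6.02, 6.02 and 6.14 in WT mice (-1.07 ± 0.24, adjusted p = 0.0231), with falls of 1.11 ± 0.24 and 0.99 ± 0.24 in the other genotypes.

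Cmpk2, a mitochondrial nucleotide kinase gene next to Rsad2 in the genome, fell by 1.14 ± 0.25 in hCAR/hPXR and by 0.88 ± 0.25 in CARko/PXRko mice. The CARko/PXRko call of Cmpk2 was made in 0 of the 6 fits that left out 1 array compared. Its other probe set, above the array median on 7 arrays, differed by -0.30 in hCAR/hPXR and by 0.07 in CARko/PXRko mice. Rsad2, which encodes the antiviral enzyme viperin, fell in hCAR/hPXR mice (-1.32 ± 0.30, adjusted p = 0.00993) and differed by -0.71 in WT and -0.39 in CARko/PXRko mice without a call. The tetherin gene Bst2, the GTPase gene Mx2 and Samd9l, which restricts poxviruses, were not called in any genotype. Mx2 differed by -0.19, -0.18 and -0.07, the smallest differences among the 9 effectors in all 3 genotypes.

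**Figure D3:**
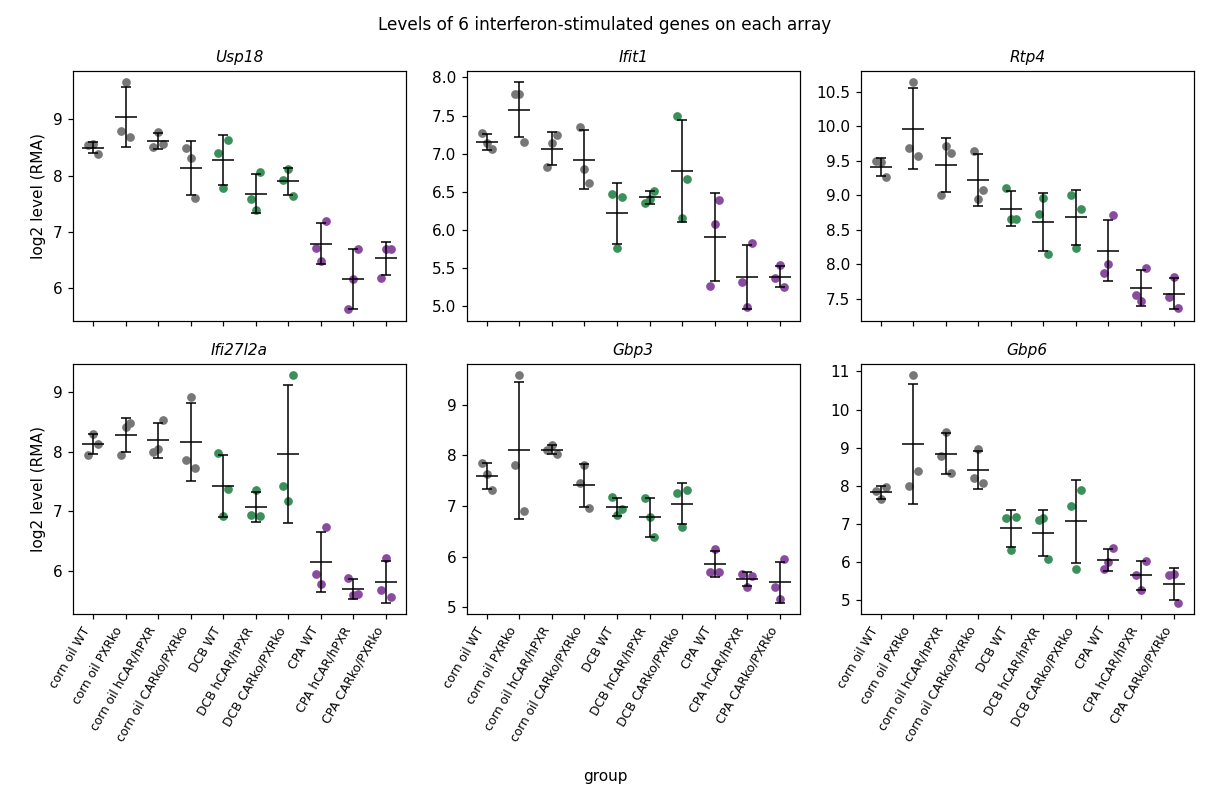
Log2 levels (vertical axis) of Usp18, Ifit1, Rtp4, Ifi27l2a, Gbp3 and Gbp6 on each array of the 10 groups (horizontal axis); points are arrays, grey for corn oil, green for DCB and purple for CPA, and bars are mean ± SD (n = 3). For Usp18 every CPA array lies at or below 7.18 and every corn oil array at or above 7.60.

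Of the 8 remaining type I induced genes tested, 3 fell in WT, 5 in hCAR/hPXR mice and 5 in CARko/PXRko mice. Ifi27l2a, which encodes a small hydrophobic protein of the ISG12 family, was at 7.95, 8.29 and 8.14 under corn oil and at 5.96, 5.78 and 6.73 under CPA in WT mice (-1.97 ± 0.40, adjusted p = 0.0106). It was at 7.99, 8.05 and 8.52 against 5.88, 5.59 and 5.61 in hCAR/hPXR mice (-2.49 ± 0.40, 5.62-fold lower, adjusted p = 0.000379). Livers without both receptors had it at 7.86, 8.92 and 7.72 against 5.69, 6.22 and 5.56 (-2.34 ± 0.40, 5.07-fold lower, adjusted p = 0.00092). The groups did not overlap in any of the genotypes.

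Rtp4, a chaperone of G protein-coupled receptors, was at 9.0, 9.72 and 9.61 against 7.55, 7.47 and 7.95 in hCAR/hPXR mice (-1.79 ± 0.29, adjusted p = 0.000417) and at 9.64, 8.94 and 9.08 against 7.52, 7.82 and 7.37 in CARko/PXRko mice (-1.65 ± 0.29, adjusted p = 0.00116). In WT mice it fell by 1.22 ± 0.29. Xaf1, a proapoptotic antagonist of XIAP, fell by 1.12 ± 0.28, 1.29 ± 0.28 and 1.34 ± 0.28 in WT, hCAR/hPXR and CARko/PXRko mice. The ADP-ribosyltransferase gene Parp14 fell by 1.21 ± 0.25 in hCAR/hPXR and by 1.02 ± 0.25 in CARko/PXRko mice, and Lgals3bp, a secreted glycoprotein gene, by 0.71 ± 0.20 and 0.78 ± 0.20. Parp9, its ubiquitin ligase partner Dtx3l and Ifi35 were not called in any genotype, with differences between -0.85 and -0.02.

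Among the 10 gamma-induced members 1 fell in WT, 6 in hCAR/hPXR mice and 3 in CARko/PXRko mice. The Gbp genes encode guanylate-binding proteins, GTPases that attack the vacuoles of intracellular pathogens. Gbp3 was at 7.84, 7.62 and 7.31 under corn oil and at 5.71, 6.15 and 5.69 under CPA in WT mice (-1.74 ± 0.40, adjusted p = 0.0270). Humanised livers had it at 8.10, 8.20 and 8.03 against 5.66, 5.41 and 5.61 (-2.55 ± 0.40, 5.86-fold lower, adjusted p = 0.000312). The fall in CARko/PXRko mice was 1.91 ± 0.40. Gbp6 was at 8.20, 8.97 and 8.07 against 5.66, 5.68 and 4.94 in CARko/PXRko mice (-2.99 ± 0.55, 7.96-fold lower, adjusted p = 0.00182). It fell 9.14-fold in hCAR/hPXR mice (-3.19 ± 0.55, adjusted p = 0.000808), and in WT mice it differed by -1.78 without a call (adjusted p = 0.129), although its CPA arrays lay below the controls there too.

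Gbp2 fell by 2.41 ± 0.46 in hCAR/hPXR mice and differed by -1.05 and -1.24 in WT and CARko/PXRko mice. Its probe set is of a type whose probes can match related transcripts, so signal from other Gbp genes cannot be told apart from its own. Cxcl9, a chemokine that draws T cells, fell by 2.75 ± 0.64 in hCAR/hPXR and by 2.54 ± 0.64 in CARko/PXRko mice. Irf1, the transcription factor of the gamma response (-1.03 ± 0.17), and the GTPase gene Ifi47 (-1.37 ± 0.34) were called in hCAR/hPXR mice and not in the others, where Irf1 differed by -0.22 and -0.56 and Ifi47 by -0.69 and -1.06. The immunity-related GTPase genes Igtp, Irgm1 and Iigp1 and the chemokine gene Cxcl10 were not called in any genotype, with differences between -1.57 and -0.24. The median over the 10 gamma-induced members was -0.66, -1.47 and -1.05 in WT, hCAR/hPXR and CARko/PXRko mice, and over the 30 type I induced members -0.63, -0.88 and -0.86.

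The count in WT mice rested on single arrays. Of its 10 calls only that of Usp18 was made whichever of the 6 arrays was left out. The count was 3 and 1 without corn oil WT replicates 1 and 2, and 1, 2 and 6 without CPA WT replicates 1, 2 and 3. In hCAR/hPXR mice 14 of the 22 calls were made in all 6 such fits, and the count stayed between 16 and 21. In CARko/PXRko mice 9 of the 18 calls were made in all of them; the count was 9 without corn oil replicate 1 and 12 without the 4 arrays with muscle transcripts, and all 12 were among the 18. With only the groups compared in the fit, the counts were 20 in WT and 6 in CARko/PXRko mice.

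Under DCB, 0 members were called in WT mice with limma, where 0.735% of all genes were called in either direction. An unadjusted p under 0.05 was reached there by 5 of the 40 members and by 1295 of the 12795 genes tested. In CARko/PXRko mice 0 members were called, where 0.117% of all genes were called. There 7 members and 1036 of all genes tested had an unadjusted p under 0.05. In hCAR/hPXR mice 5 members fell and none rose, where 4.35% of all genes were called lower. Of the 40 members, 12, 22 and 4 had all DCB arrays below all corn oil arrays in WT, hCAR/hPXR and CARko/PXRko mice, beside 11.5%, 13.8% and 5.6% of all genes tested. The medians of the members were -0.28, -0.48 and -0.24. Without the 4 arrays with muscle transcripts, which leaves 1 DCB CARko/PXRko array, assumed to vary like the other groups, the CARko/PXRko median was 0.00, with 0 members called and 1 at an unadjusted p under 0.05.

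The 5 members that fell under DCB in hCAR/hPXR mice also fell there under CPA, a comparison with the same controls. Ifit2 was at 6.22, 6.36 and 5.88 under corn oil and at 4.95, 5.21 and 5.35 under DCB (-0.98 ± 0.22, adjusted p = 0.00792). Gbp6 was at 8.78, 9.42 and 8.34 against 7.10, 7.15 and 6.08 (-2.07 ± 0.55, 4.20-fold lower, adjusted p = 0.0220). Gbp3 was at 8.10, 8.20 and 8.03 against 7.16, 6.79 and 6.39 (-1.33 ± 0.40, adjusted p = 0.0407). The DCB and corn oil arrays did not overlap for any of the 5 members. Parp14, at 8.35, 8.73 and 8.39 against 7.95, 7.96 and 7.11, fell by 0.82 ± 0.25 (adjusted p = 0.0426). Irf1, at 9.92, 9.87 and 9.61 against 9.51, 9.01 and 9.22, fell by 0.55 ± 0.17 (adjusted p = 0.0462). None of the 5 calls was made in all 6 fits that left out 1 array: the count was 0 without corn oil replicate 2, 1 without corn oil replicate 1 and 2 without DCB replicate 3. Without corn oil PXRko replicate 2 or DCB CARko/PXRko replicate 3, arrays outside the comparison that share its spread estimate, it was 8; without corn oil WT replicate 2 or CPA WT replicate 3 it was 3.

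In WT mice the smallest p-values under DCB were those of Irf7, Ifit1 and Ifit2. Irf7 was at 8.48, 8.38 and 8.0 under corn oil and at 7.79, 7.52 and 7.07 under DCB (-0.82 ± 0.24, adjusted p = 0.130). Ifit1 was at 7.27, 7.14 and 7.06 against 6.47, 5.76 and 6.43 (-0.94 ± 0.30, adjusted p = 0.176), and Ifit2 differed by -0.58 ± 0.22 (adjusted p = 0.298). The arrays of these genes did not overlap, but the differences did not pass the test. In CARko/PXRko mice the smallest p-values were those of Ifi47 (-1.05 ± 0.34, adjusted p = 0.325), Iigp1 (-0.99 ± 0.33, adjusted p = 0.341) and Irf7 (-0.67 ± 0.24, adjusted p = 0.426). On DCB CARko/PXRko replicate 3, one of the arrays with muscle transcripts, Cxcl10 was at 9.74 against 6.79 and 6.02 on the other DCB arrays of that genotype.

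CPA and DCB were also compared directly within each genotype, a comparison added after the data were seen. Members were lower under CPA than under DCB in 36, 34 and 38 of 40 cases in WT, hCAR/hPXR and CARko/PXRko mice. Of all genes tested, 50.4%, 51.1% and 52.9% were lower. The test was passed by 1, 7 and 11 of the members, beside 1.26%, 4.06% and 4.32% of all genes called lower. The labelled duration differs between CPA and DCB in WT and hCAR/hPXR mice but is 3 days for both in CARko/PXRko mice. Usp18 was the 1 member called in WT mice (-1.48 ± 0.29, adjusted p = 0.00626), and it was lower in hCAR/hPXR (-1.53 ± 0.29) and CARko/PXRko mice (-1.38 ± 0.29) too. Its DCB levels of 8.41, 7.77 and 8.63 in WT mice all lay above its CPA levels.

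The other 6 in hCAR/hPXR mice were Ifit3 (-1.33 ± 0.31), Xaf1 (-1.01 ± 0.28), Ifit1 (-1.05 ± 0.30), Ifi27l2a (-1.37 ± 0.40), Irf9 (-0.70 ± 0.21) and Rtp4 (-0.95 ± 0.29). Ifi27l2a in CARko/PXRko mice was at 7.43, 7.17 and 9.28 under DCB and at 5.69, 6.22 and 5.56 under CPA (-2.14 ± 0.40, adjusted p = 0.00258). The others there were Ifit2, Lgals3bp, Ifit1, Xaf1, Dhx58, Irf9, Gbp3, Rtp4 and Cmpk2, all with differences between -1.55 and -0.85. Without the 4 arrays with muscle transcripts, which include DCB CARko/PXRko replicates 2 and 3, the counts were 4, 11 and 3, and the last then rests on 1 DCB array, assumed to vary like the other groups. Leaving out 1 of the arrays compared moved the count to 2 without DCB WT replicate 2. The hCAR/hPXR count moved to 2 and 1 without CPA replicates 1 and 2 and to 4 without DCB replicate 1 or 2. The CARko/PXRko count was 6 without CPA replicate 1 or DCB replicate 3. Of arrays outside the comparison, corn oil CARko/PXRko replicate 3, DCB CARko/PXRko replicate 2 or DCB hCAR/hPXR replicate 3 took the WT count to 2, and corn oil PXRko replicate 2 or DCB CARko/PXRko replicate 3 took it to 3.

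Under corn oil, 0 members were called with limma between any pair of genotypes compared. Of all genes, 0.0234% were called in either direction for hCAR/hPXR against WT, 0.0391% for CARko/PXRko against WT, 0.0234% for PXRko against WT and 0.0156% for CARko/PXRko against PXRko. Members with an unadjusted p under 0.05 numbered 2, 0, 5 and 8 in the same order, beside 185, 424, 220 and 353 of the 12795 genes tested. Without the 4 arrays with muscle transcripts the members numbered 3, 1, 13 and 16, again with 0 called. The count over all genes at that threshold was not made there. In hCAR/hPXR mice the 10 gamma-induced members had a median 0.69 above WT, beside 0.00 for type I induced members and 0.00 for all genes tested. Of 11 Kupffer cell markers 0 were called for hCAR/hPXR against WT, with a median difference of 0.29. Their list medians were 0.18 to 0.55 above the corn oil WT mean on these arrays. On corn oil WT arrays they were -0.09 to 0.08, without overlap. The part of Kupffer cells in the result was not tested. Ifi47 was at 10.49, 10.20 and 10.23 against 9.76, 9.60 and 9.21 (0.78 ± 0.34, adjusted p = 1.00), Gbp2 differed by 1.00 ± 0.46 and Gbp6 by 1.01 ± 0.55, also without a call. The same corn oil arrays are the controls of both treatment comparisons in hCAR/hPXR mice.

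Corn oil PXRko replicate 2 stood apart from the other resting arrays. It was the highest of the 12 corn oil arrays for 30 of the 41 measured members and for 9 of the 10 gamma-induced members. The same count over all genes was not made, so these counts cannot set the members apart from other genes on that array. Igtp was at 9.31, 12.41 and 9.40 on the 3 corn oil PXRko arrays and between 9.28 and 10.51 on the other corn oil arrays. Gbp6 was at 8.0, 10.90 and 8.40, Gbp3 at 7.80, 9.58 and 6.91, Irgm1 at 9.41, 10.88 and 9.30 and Zbp1 at 7.06, 8.78 and 7.42. The median of the gamma-induced members on that array was 1.69 above corn oil WT and that of the type I induced members 0.47. The median of 11 Kupffer cell markers was 0.83 and that of 9 T and NK cell markers 0.38 above corn oil WT, the highest of the corn oil arrays for both lists; their part in the result was not tested. The smallest p-values for PXRko against WT were those of Zbp1 (0.79 ± 0.30), Ifi47 (0.87 ± 0.34) and Irgm1 (0.77 ± 0.31), all with an adjusted p of 1.00. For CARko/PXRko against PXRko, which includes the same array, they were those of Usp18 (-0.91 ± 0.29), Ifit2 (-0.62 ± 0.22) and Rtp4 (-0.75 ± 0.29), and for CARko/PXRko against WT those of Ifit2 (-0.34 ± 0.22), Irf9 (-0.32 ± 0.21) and Zbp1 (0.45 ± 0.30).

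**Figure D4:**
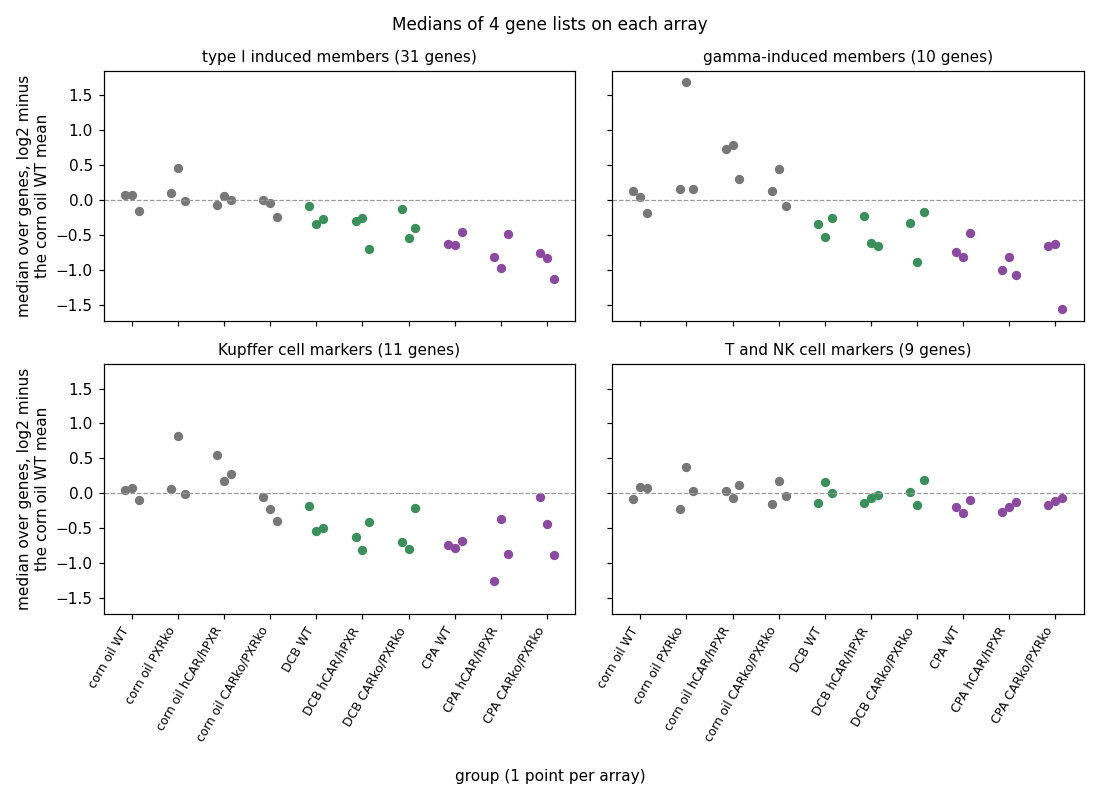
Median over the genes of a list, as log2 level minus the corn oil WT mean (vertical axis), on each array of the 10 groups (horizontal axis), for type I induced members, gamma-induced members, Kupffer cell markers and T and NK cell markers; grey is corn oil, green DCB and purple CPA. Gamma-induced members are highest on corn oil PXRko replicate 2 (1.69) and lowest on CPA CARko/PXRko replicate 3 (-1.56).

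Whether a treatment effect differed between genotypes was tested as a difference of differences. With limma 0 members were called for any of the 4 such comparisons. Of all genes, 0% were called for the DCB effect in hCAR/hPXR or CARko/PXRko against WT mice, and 0.0625% and 0.0703% for the CPA effect in the same pairs. In that order, 398, 324, 628 and 967 of the 12795 genes tested had an unadjusted p under 0.05. Members with an unadjusted p under 0.05 numbered 0, 1, 3 and 2, and 1, 2, 4 and 1 without the 4 arrays with muscle transcripts, with 0 called there too. By the labels CPA was given for 3 days in CARko/PXRko and 6 days in WT mice, so genotype and labelled duration cannot be told apart in that CPA comparison. The fall of Irf1 under CPA was larger by 0.81 ± 0.24 in hCAR/hPXR than in WT mice (95% interval of the difference -1.31 to -0.31; adjusted p = 0.644), that of Ifit3 by 1.00 ± 0.45 and that of Gbp2 by 1.35 ± 0.65. In CARko/PXRko against WT mice Ddx58 differed by -0.67 ± 0.29, Stat2 by -0.73 ± 0.32 and Lgals3bp by -0.57 ± 0.29. For the CPA effect on Usp18 the interval of the difference ran from -1.60 to 0.10 between hCAR/hPXR and WT mice, so equal effects were not shown. For DCB, the smallest p-values between hCAR/hPXR and WT mice were those of Gbp2 (-1.20 ± 0.65), Usp18 (-0.70 ± 0.41) and Parp14 (-0.58 ± 0.35), and between CARko/PXRko and WT mice those of Ifi47 (-1.06 ± 0.48), Ifit1 (0.79 ± 0.42) and Zbp1 (-0.74 ± 0.43).

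Other genes of the pathway were read from separate lists. Of 42 further interferon-stimulated genes tested, 3 fell under CPA in WT, 8 in hCAR/hPXR mice and 9 in CARko/PXRko mice, and 0 rose. Shisa5 fell by 0.71 ± 0.15, 0.94 ± 0.15 and 1.05 ± 0.15 and Epsti1 by 1.14 ± 0.18, 1.14 ± 0.18 and 0.84 ± 0.18. Irgm2, an immunity-related GTPase gene, fell by 2.07 ± 0.41 in hCAR/hPXR mice, and Ddx60, a helicase gene, by 1.28 ± 0.29 in CARko/PXRko mice. Epsti1 exceeded the array median on 17 arrays and Ddx60 on 13. Mean levels under CPA were 4.94, 5.16 and 4.97 for Epsti1 and, in CARko/PXRko mice, 4.11 for Ddx60. All were below the lowest array median of 5.36, so these 2 genes were read close to the dim end of the scale. The median of the 42 was -0.24, -0.36 and -0.22. Under DCB 4 of them fell in hCAR/hPXR mice, among them Epsti1 (-1.08 ± 0.18), and 0 in the other genotypes.

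Of 16 genes for interferon receptors and signalling, 0, 1 and 0 fell under CPA, the 1 being the gamma receptor gene Ifngr1 in hCAR/hPXR mice (-0.68 ± 0.19). Under DCB in hCAR/hPXR mice Jak2 (-0.76 ± 0.16), Ifngr1 (-0.74 ± 0.19) and Irf2 (-0.79 ± 0.24) fell. Among 11 upstream sensors and adaptors 1 fell under CPA in each genotype. This was Ifi204, a DNA sensor of the p200 family, in WT (-0.84 ± 0.20) and hCAR/hPXR mice (-0.91 ± 0.20) and Tlr3 in CARko/PXRko mice (-0.72 ± 0.19). Ifi204 exceeded the array median on 3 arrays only, the fewest that the filter allowed, and lay between 4.21 and 5.66. Its WT means, 5.22 under corn oil and 4.38 under CPA, were below the lowest array median of 5.36. The falls of Ifi204 were therefore read close to the dim end of the scale. Ifng, Ifna4, Ifna5 and Ifnab never exceeded an array median, so their levels were not compared. Of 5 cytokine genes tested Il18 was the 1 called in the treatment comparisons against corn oil, in WT mice under CPA (-0.88 ± 0.22). In CPA against DCB the type I interferon gene Ifna2 was higher under CPA in CARko/PXRko mice (0.58 ± 0.15, adjusted p = 0.0191). Its level was between 4.99 and 6.02 on all arrays, close to the array medians. The DCB arrays of that comparison include replicates 2 and 3, which carry muscle transcripts, and Ifna2 was not tested without them.

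Of 18 antigen presentation genes, many of which interferon gamma also induces, 3, 6 and 6 fell under CPA in WT, hCAR/hPXR and CARko/PXRko mice. Under DCB 6 fell and Psme1, a proteasome activator gene, rose (0.46 ± 0.14) in hCAR/hPXR mice, and 0 were called in the other genotypes. The class II genes led the falls under CPA: H2-Aa fell by 2.41 ± 0.47, 4.99 ± 0.47 and 4.40 ± 0.47 and Cd74 by 1.30 ± 0.32, 2.74 ± 0.32 and 1.74 ± 0.32. These genes are also made by dendritic cells, B cells and macrophages. In bulk liver, fewer cells of a type and less RNA per cell cannot be told apart.

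Markers of liver immune cells were read beside the members. Of 11 Kupffer cell markers, 2 fell under CPA in WT (median -0.78), 8 in hCAR/hPXR (median -1.24) and 1 in CARko/PXRko mice (median -0.19). In CARko/PXRko mice the 1 Kupffer marker that fell was Csf1r (-1.11 ± 0.27). Under DCB 0, 7 and 0 Kupffer markers fell in WT, hCAR/hPXR and CARko/PXRko mice. The summed linear signal of the 11 markers ranged from 8914 to 11055 on corn oil WT arrays and from 5364 to 6109 on CPA WT arrays, from 11536 to 13429 against 3638 to 8149 in hCAR/hPXR mice, and from 7749 to 9632 against 5010 to 8969 in CARko/PXRko mice. The CARko/PXRko ranges overlapped and the others did not. On DCB arrays it ranged from 6591 to 9207 in WT, from 5645 to 7074 in hCAR/hPXR and from 5822 to 6646 in CARko/PXRko mice.

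None of the 6 tested T and NK cell markers was called under CPA or DCB in any genotype, and Cd3g never exceeded an array median. Nkg7 and Gzmb exceeded the array median on 2 arrays each and Gzma on 9, so the list was read partly at the dim end of the scale. The summed signal over 9 T and NK cell markers was 475 to 531 on corn oil WT and 423 to 451 on CPA WT arrays, without overlap. In hCAR/hPXR mice it was 516 to 677 against 418 to 445, also without overlap. In CARko/PXRko mice it was 464 to 591 against 439 to 516, with overlap. Of 4 B and plasma cell markers 0, 2 and 1 fell under CPA. Summed signals over 5 markers were 328 to 371 against 244 to 277 in WT mice. They were 285 to 422 against 209 to 250 in hCAR/hPXR and 320 to 564 against 236 to 271 in CARko/PXRko mice. Cd79a exceeded the array median on 1 array and Ms4a1 on 5. The hCAR/hPXR means of Ms4a1, which fell there, were 5.32 under corn oil and 4.43 under CPA, both below the lowest array median of 5.36. None of the 5 hepatocyte markers was called under CPA. Of 8 acute phase genes, which hepatocytes induce in inflammation, 0, 1 and 3 rose and 0 fell under CPA in WT, hCAR/hPXR and CARko/PXRko mice. The median of the 8 was 0.06, -0.15 and 1.16, so the list as a whole was not higher in hCAR/hPXR mice. Lcn2, the lipocalin that binds bacterial siderophores, was the 1 that rose there (4.10 ± 0.78), and it rose by 5.36 ± 0.78 in CARko/PXRko mice. The part of these cell types and of the acute phase genes in the falls of the members was not tested.

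A further 25 probe sets, annotated to 18 of the members but not used in the comparisons, were read on the same arrays, and 8 of them were dim (above the array median on fewer than 3 arrays). Over the 17 others, of 14 members, the CPA difference had the sign of the gene's used probe set in 11, 16 and 16 of 17 cases in WT, hCAR/hPXR and CARko/PXRko mice. Where the used probe set was called, this held for 1 of 1, 8 of 8 and 3 of 4, the exception being Cmpk2 in CARko/PXRko mice. Under DCB it held in 14, 16 and 13 of 17 cases. With the 8 dim probe sets included, it held under CPA in 18, 21 and 23 of 25 cases, and for 3 of 3, 9 of 11 and 8 of 9 where the used probe set was called, and under DCB in 20, 20 and 21 of 25.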

How the data were processed

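Liver RNA of 30 samples was hybridised to Affymetrix mouse expression arrays. The authors deposited 1 table of log2 expression values for 45037 probe sets, normalised with RMA per the submitters' processing notes, with the version not given in the sources used here. RMA adjusts the arrays to 1 distribution, so a shift shared by most genes would not be seen. Gene names came from the platform annotation, which can be old: 34945 probe sets had 1 gene, 932 several and 9160 none, and those with several or none were not used. The probe set with the highest mean stood for each of 18193 genes, and the 12795 genes above the array median on at least 3 arrays were tested.

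Group means over all 30 arrays were fitted with limma 3.58.1 in R 4.3.3 (20 residual degrees of freedom). P-values were adjusted by Benjamini-Hochberg over all genes tested, and an adjusted p under 0.05 was a call. ± gives the standard error of a log2 difference of 3 arrays against 3. There were 14 comparisons planned and 3 added. Members, gene lists and the rule for named genes were chosen with earlier results of these data known. Array values were given for up to 6 called members of a comparison, by smallest adjusted p, or for the 3 smallest p-values where none was called, and up to 3 called genes of each other list were named. Groups came from sample titles. The fit was tested on simulated data. Alternatives were other filters, normalisations and fits, a replicate block and each array left out. The number of arrays limits the precision.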

Additional observations from a re-analysis of the deposited data

How the results depend on the processing

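Counts of members called moved by over 1.5 times under the following settings. With only the groups compared in the fit, CPA gave 20 calls in WT and 6 in CARko/PXRko mice, DCB in hCAR/hPXR mice gave 1, and CPA against DCB gave 7, 1 and 0 in WT, hCAR/hPXR and CARko/PXRko mice. Each such fit estimates the spread from fewer arrays. DCB in hCAR/hPXR mice gave 2 calls with no filter on dim genes and 3 with quantile normalisation, and CPA against DCB gave 2 in WT and 11 in hCAR/hPXR mice with quantile normalisation and 2 in WT mice when all probe sets of a gene were averaged. Without the 4 arrays with muscle transcripts, an alternative chosen after seeing the data, DCB gave 1 call in WT and 8 in hCAR/hPXR mice and CPA against DCB gave 4, 11 and 3. The cause was not tested.

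Over fits that each left out 1 of the 30 arrays, the calls ranged from 1 to 11 for CPA in WT, 16 to 23 in hCAR/hPXR and 9 to 24 in CARko/PXRko mice. They ranged from 0 to 8 for DCB in hCAR/hPXR mice, and from 1 to 3, 1 to 9 and 6 to 16 for CPA against DCB in WT, hCAR/hPXR and CARko/PXRko mice. None of the 74 called differences changed sign under any setting run. Of 185 differences from corn oil that were not called, 50 changed sign under at least 1 setting, among them Stat2 under CPA in WT mice, which was 0.08 and was -0.14 when its probe sets were averaged. With the replicate number as a block, CPA gave 8, 21 and 21 calls in WT, hCAR/hPXR and CARko/PXRko mice and DCB gave 5 in hCAR/hPXR mice. Of 30 pairs of arrays with the same number 12 correlated over 0.1, and the correlations ran from -0.586 to 0.571. Some arrays recur among the pairs, so these values do not decide whether the numbers mark a batch. The numbers were not taken to pair the samples.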

Other observations

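Markers of other liver cells gave few calls. Of 6 stellate cell markers 2 fell under CPA in CARko/PXRko mice, Reln (-0.99 ± 0.27) and Col3a1 (-2.48 ± 0.71), and 2 fell under DCB in hCAR/hPXR mice, Lrat (-1.52 ± 0.34) and Reln (-1.06 ± 0.27). Of 6 sinusoidal endothelial markers Kdr fell under CPA in hCAR/hPXR (-0.59 ± 0.15) and CARko/PXRko mice (-0.52 ± 0.15), and Lyve1, the hyaluronan receptor of sinusoids and lymphatics, rose in CARko/PXRko mice (3.53 ± 0.63). Of 3 dendritic cell and 3 neutrophil markers tested, 0 were called by limma in any treatment comparison.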
